A study of Mus musculus with 29 samples.

Results

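Dimethylation of histone H3 at lysine 36 (H3K36me2) was compared between RAW264.7 cells given flavopiridol and cells given flavopiridol and then lipopolysaccharide (LPS). RAW264.7 is a mouse macrophage-like line transformed by Abelson murine leukemia virus. The comparison rests on 2 of the 29 samples of the study. The first is the H3K36me2 library of cells kept with flavopiridol for 1 h and without LPS, called the drug list here. The second is the H3K36me2 library of cells given flavopiridol for 1 h and then LPS at 100 ng/ml for 4 h, called the drug and LPS list. The labels name no library of cells given the drug alone at that later time. LPS and the longer time after the drug therefore cannot be told apart. The H3K36me2 libraries of untreated cells, with neither agent, and of cells given LPS for 1 h or 4 h without the drug were used beside them. In all, 26 samples have a peak list, covering 7 histone marks and the transcription factor PU.1, and 3 input samples have none. There is 1 library per mark and condition, so no spread between cultures can be measured and no p-value is given. The Wilson intervals below hold 95% of counting error only. The dose of flavopiridol is not given in the labels.

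H3K36me2 is laid down by enzymes such as NSD1 and covers broad stretches between and within genes. H3K36me3, its trimethylated relative, is laid down by SETD2, which travels with elongating RNA polymerase II, and marks the bodies of transcribed genes. Flavopiridol inhibits CDK9, the kinase that releases paused polymerase into elongation. LPS activates macrophages through Toll-like receptor 4.

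With flavopiridol, H3K36me2 covered less of the genome after LPS than before it, in more and narrower peaks. The drug list held 58006 peaks that covered 304.6 Mb. The drug and LPS list held 61528 peaks that covered 230.0 Mb. The number of peaks was thus higher while the covered length fell by 74.6 Mb, to 75.5% of its value. Mean peak width was 5252 bp in the drug list and 3738 bp in the drug and LPS list, and the widest peaks were 228047 bp and 118260 bp. Without the drug the LPS step went the other way. The untreated list covered 281.1 Mb in 50867 peaks and the LPS 4 h list covered 348.8 Mb in 46696 peaks, which is 67.7 Mb more in fewer and wider peaks.

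**Figure D1:**
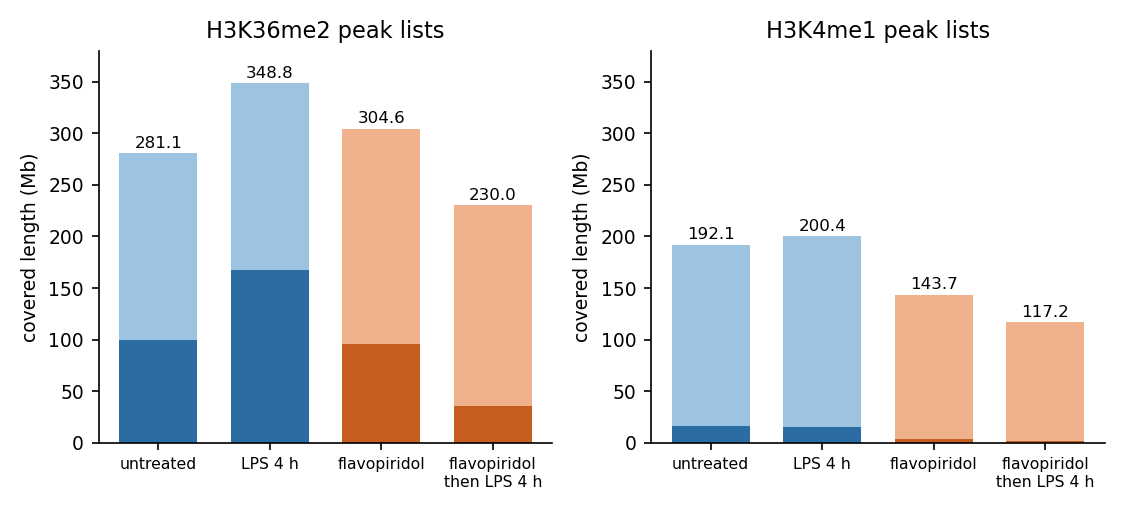
Covered length in Mb (y axis) of the H3K36me2 and H3K4me1 lists in 4 conditions (x axis), 1 library per bar; the dark lower part of each bar is the length in peaks of at least 20 kb. For H3K36me2 the bar is higher after LPS without flavopiridol (281.1 and 348.8 Mb) and lower after LPS with it (304.6 and 230.0 Mb).

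The wide domains differed in the same direction. Peaks of at least 20 kb numbered 2773 in the drug list and held 95.8 Mb. In the drug and LPS list 1198 such peaks held 35.5 Mb. The untreated and LPS 4 h lists had 2732 and 3964 of them, with 99.2 and 167.7 Mb.

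The strength of the calls moved with the lists, and its part in these results was not tested. The median deposited −log10 q of a peak was 1.19 in the drug list and 0.991 in the drug and LPS list. It was 1.89 in the untreated list and 3.45 in the LPS 4 h list. Those that reached a −log10 q of 5 made up 0.197% of the drug list, 0.0390% of the drug and LPS list, 9.02% of the untreated list and 32.5% of the LPS 4 h list. The read depth of the libraries is unknown. H3K4me1, a mark of enhancers, was profiled in the same 2 drug conditions. Its lists covered 143.7 Mb with the drug and 117.2 Mb with the drug and LPS, which is 81.6% of the first. Without the drug the H3K4me1 lists covered 192.1 Mb before LPS and 200.4 Mb at 4 h.

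The antibody label was checked against the untreated lists. The untreated H3K36me2 list covered 74.6% of the drug list and 80.2% of the drug and LPS list. The next highest shares came from H3K36me3 for the drug list, at 37.9%, and from H3K4me1 for the drug and LPS list, at 35.2%. Both libraries thus lay mostly where H3K36me2 was called in untreated cells.

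Peaks were then sorted by their overlap of at least 1 bp in the other list. A gained peak is one of the drug and LPS list that meets no peak of the drug list, and a lost peak is one of the drug list that meets none of the drug and LPS list. There were 6103 gained peaks, 9.92% of the drug and LPS list (interval 9.69 to 10.2%). There were 16997 lost peaks, 29.3% of the drug list (28.9 to 29.7%). A fragmented peak is one of the drug list that meets at least 2 peaks of the drug and LPS list, and 11595 peaks did so, 20.0% of the drug list. The reverse, a fused peak of the drug and LPS list that meets at least 2 peaks of the drug list, held for 4174 peaks or 6.78%. Lost peaks outnumbered gained ones 2.79 times, and fragmented peaks outnumbered fused ones 2.78 times.

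The same step without flavopiridol had the opposite order in both respects. From untreated cells to LPS 4 h, 11775 peaks were gained (25.2% of the LPS 4 h list) and 3057 were lost (6.01% of the untreated list). Fused peaks numbered 8920 (19.1%) and fragmented peaks 1293 (2.54%), a ratio of 6.90 in favour of fusion. Of the untreated length, 95.7% was still covered at LPS 4 h. Of the length of the drug list, 66.9% was still covered in the drug and LPS list.

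H3K4me1 with the drug shared the direction, with less fragmentation. From flavopiridol to flavopiridol then LPS, 14636 H3K4me1 peaks were lost (21.8%) and 6825 gained (11.0%). Fragmented H3K4me1 peaks numbered 3435 (5.12%) and fused ones 1231 (1.99%). H3K4me1 peaks were narrower than H3K36me2 peaks, and the share that broke depended on width. Among peaks of 5 to 10 kb, 33.8% of H3K4me1 and 44.7% of H3K36me2 peaks were fragmented. Among peaks of 10 to 20 kb the shares were 56.9% and 73.5%.

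Most of the missing H3K36me2 came from peaks that were kept. The drug list lost 100.8 Mb, of which 22.5 Mb lay in lost peaks and 78.4 Mb was cut from kept ones. The drug and LPS list added 26.2 Mb, of which 5.65 Mb lay in gained peaks and 20.5 Mb lay beside or between kept ones. Gained peaks had a median width of 789 bp, against 2267 bp for kept peaks of the same list. Lost peaks had a median of 1050 bp, against 3790 bp. The widest gained peak measured 9771 bp and the widest lost peak 10964 bp.

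Loss was most frequent among narrow peaks and breakage among wide ones. The definitions set part of this, since a peak must span a gap of at least 1181 bp to count as fragmented and a wide peak is kept by a single overlap. The comparison with the drug-free pair uses the same definitions. Of drug-list peaks under 500 bp, 74.2% were lost (72.8 to 75.5%). The lost share was 61.7% from 500 bp to 1 kb, 45.5% from 1 to 2 kb, 17.7% from 2 to 5 kb and 2.17% from 5 to 10 kb. Only 2 of 4876 peaks of 10 to 20 kb were lost, and 0 of 2773 peaks of at least 20 kb, which allows a share of up to 0.108%. Fragmentation ran the other way, with 9.47% of peaks of 2 to 5 kb and 89.2% of peaks of at least 20 kb (88.0 to 90.3%). The wide domains were broken but not removed, since those of at least 20 kb kept 83.9% of their length.

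Without the drug, 24.3% of untreated peaks under 500 bp were lost and 8.57% of those of at least 20 kb were fragmented. Within each of the 5 width classes under 10 kb the lost share was higher with the drug. The intervals did not overlap, but they hold counting error over peaks of single libraries and no spread between libraries. Fusion at the wide end was lower with the drug, at 31.6% of drug and LPS peaks of at least 20 kb, against 75.3% of LPS 4 h peaks of that width.

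**Figure D2:**
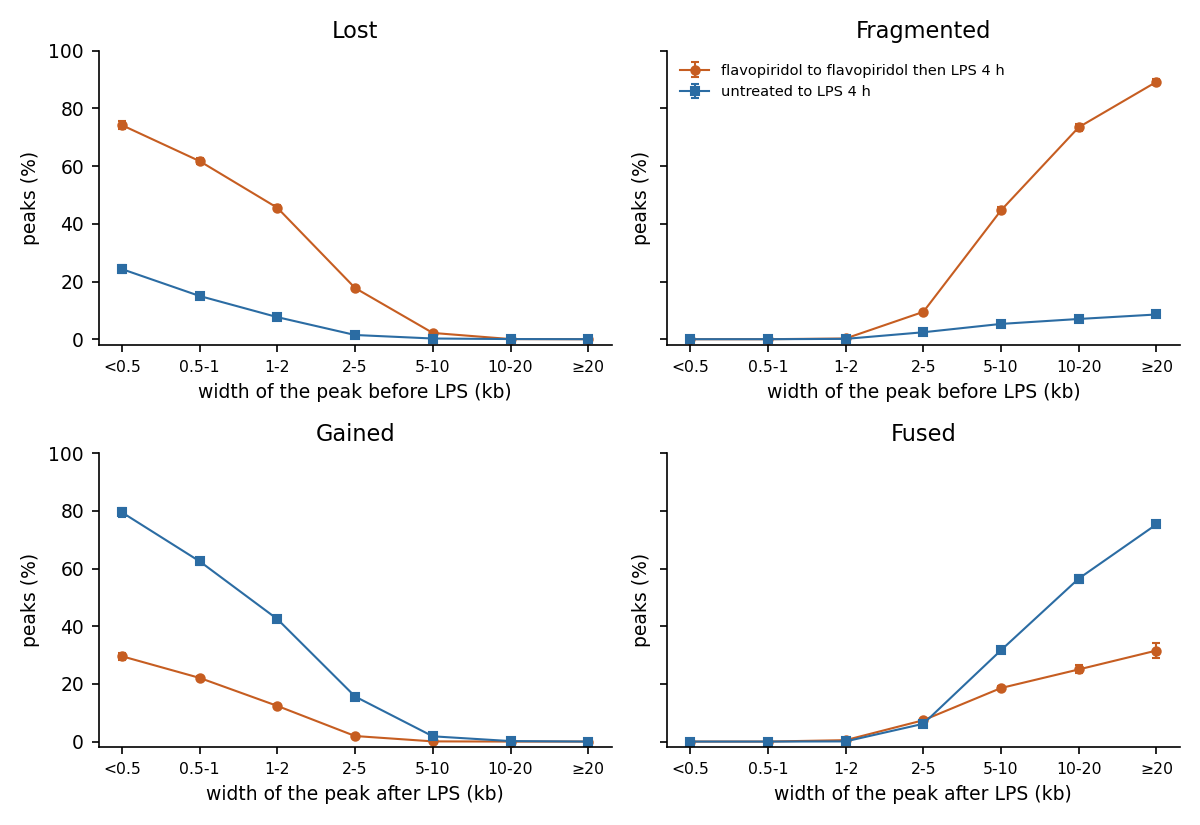
Share of H3K36me2 peaks in % (y axes) that were lost, fragmented, gained or fused, by peak width in kb (x axes), with flavopiridol (orange circles) and without (blue squares); bars are 95% Wilson intervals over peaks of single libraries. With the drug, losses reach 74.2% among the narrowest peaks and fragmentation 89.2% among the widest.

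Peaks that neither broke nor joined were also mostly narrower after LPS with the drug. In 24080 pairs each peak met exactly 1 peak of the other list, and 70.6% of the pairs were narrower (70.1 to 71.2%). The median over pairs of the width after LPS to the width before was 0.794, a log2 ratio of −0.33, with median widths of 2637 bp before and 1794 bp after. Without the drug 24128 such pairs were found, of which 21.5% were narrower, and the median ratio was 1.19. H3K4me1 pairs with the drug were narrower in 67.5% of cases, with a median ratio of 0.884.

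Fragmented peaks held 172.7 Mb, 56.7% of the length of the drug list. Their median width was 10462 bp, against 2611 bp for kept peaks that stayed whole. Of the 11595, 7428 (64.1%) met 2 pieces, 2420 met 3, 943 met 4 and 804 met at least 5. The pieces kept 72.8% of the length. The inner gaps between pieces added up to 35.5 Mb and the lost ends to 11.4 Mb. Inner gaps were short, with a median of 1562 bp, and 73.7% were under 2 kb. The lists hold no gap narrower than 1181 bp, so shorter breaks cannot be seen.

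Most gaps opened inside territory that carried H3K36me2 without the drug. At LPS 4 h 82.0% of inner gaps were wholly covered by an H3K36me2 peak, in untreated cells 63.0%. A single LPS 4 h peak spanned or touched 9038 fragmented peaks (77.9%), and a single untreated peak 6585 (56.8%). The gaps were still less often covered than the pieces beside them. Untreated H3K36me2 covered 88.4% of the length of pieces and 70.7% of the length of gaps, and LPS 4 h H3K36me2 covered 95.5% and 85.5%.

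H3K36me3, H3K4me3, PU.1 and H3K27ac were denser in the gaps than in the pieces. Untreated H3K36me3 covered 44.6% of gap length and 30.8% of piece length, and at LPS 4 h 40.9% and 29.0%. H3K4me3, the mark of active promoters, covered 2.51% of gaps and 0.806% of pieces in untreated cells. PU.1, the lineage factor of macrophages, covered 7.77% of gaps and 4.66% of pieces. H3K27ac, a mark of active enhancers and promoters, covered 13.9% and 10.8%. H3K4me1, at 31.7% and 33.3%, and H3K79me2, a mark of early transcribed gene bodies, at 22.2% and 23.3%, were slightly denser in the pieces. With the drug H3K4me1 was slightly denser in the gaps, at 21.2% and 20.3% before LPS and 16.6% and 15.7% after.

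The 5 peaks with the most pieces show the range. The first, chr1:136674661-136759753 on mm9, is 85093 bp wide and met 13 pieces that kept 70.8% of it. Untreated H3K36me2 had 7 peaks over it with 75.7% coverage, and LPS 4 h had 4 with 91.7%. H3K36me3 covered 32.2% of it and H3K4me1 38.7% in untreated cells. This domain was thus continuous in the drug list alone among the H3K36me2 lists.

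**Figure D3:**
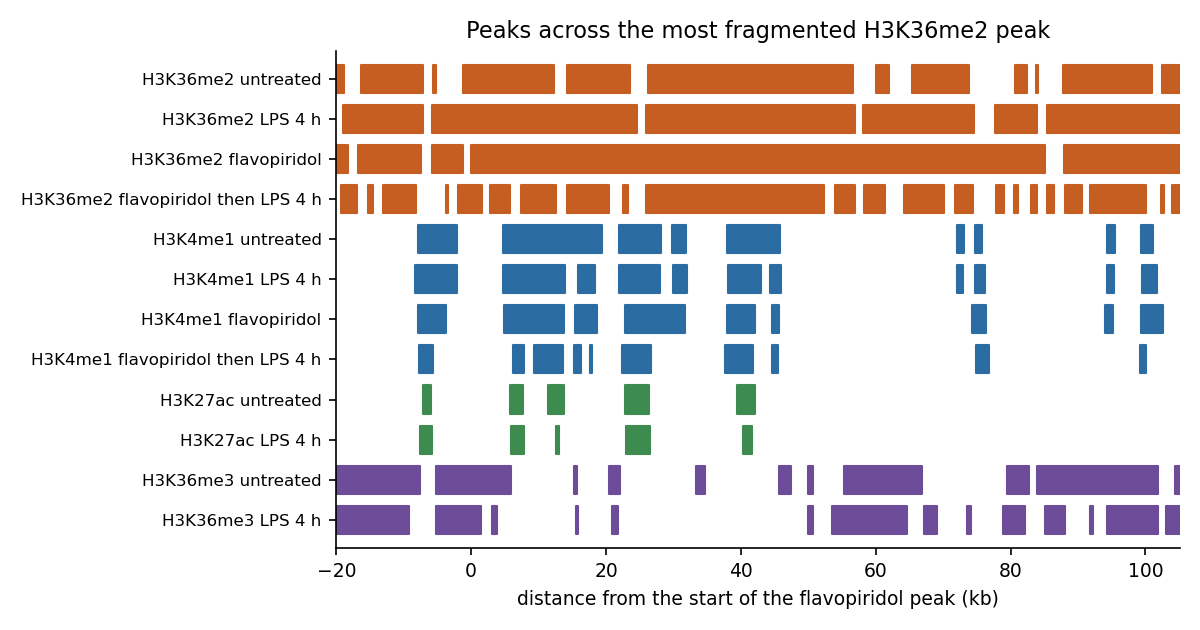
Peaks of H3K36me2, H3K4me1, H3K27ac and H3K36me3 (rows, 1 list each) across the drug-list peak with the most pieces; the x axis is the distance in kb from its start. The single flavopiridol peak faces 13 pieces after LPS, 4 peaks in the LPS 4 h list and 7 in the untreated list.

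At chr9:100545863-100658769 a peak of 112907 bp met 12 pieces. It was wholly covered by a single peak in the untreated, LPS 1 h and LPS 4 h lists, and H3K79me2 covered 80.0% of it in untreated cells and 83.8% at LPS 4 h. The pieces kept 82.7%. At chr5:90732928-90793518, 60591 bp met 12 pieces with 62.9% kept, H3K79me2 covered 100% and H3K36me3 covered 47.9% in untreated cells and 67.9% at LPS 4 h. The widest peak of the drug list, chr12:41286387-41514433, met 11 pieces and kept 93.2% of 228047 bp. A single untreated peak covered 99.97% of it and a single LPS 4 h peak 100%, and it held 29 PU.1 peaks and had untreated H3K36me3 over 5.29%. The fifth, chr17:51134190-51316850, kept 91.9% of 182661 bp in 11 pieces.

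Fusion was also present. The drug and LPS peak at chr1:39335025-39385936 joined 5 drug-list peaks that covered 88.7% of it. H3K4me1 covered 77.5% and H3K27ac 56.5% of it in untreated cells, and H3K27ac covered 25.5% at LPS 4 h. The peaks at chr12:29473248-29494098 and chr3:27925253-27942036 also joined 5 peaks each, covered 73.3% and 64.0% before LPS. LPS 4 h cells without the drug had a single peak over the whole of each of the 3.

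Gained peaks were less often a part of the drug-free landscape than kept ones. Of the 6103 gained peaks, 35.0% met a peak of the untreated list (33.9 to 36.3%), 46.0% one of the LPS 1 h list and 54.7% one of the LPS 4 h list (53.5 to 56.0%). For kept peaks of the same list the shares were 83.2%, 87.8% and 91.5%. Both lists held 1950 gained peaks (32.0%), the LPS 4 h list alone 1390 (22.8%), the untreated list alone 189 (3.10%) and neither list 2574 (42.2%). The gap to kept peaks also stood at matched width. Among peaks of 1 to 2 kb, 56.3% of gained and 87.7% of kept ones met the LPS 4 h list.

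Lost peaks resembled gained ones in this respect. Of the 16997, 42.4% met the untreated list (41.7 to 43.1%) and 57.1% the LPS 4 h list (56.3 to 57.8%), against 83.3% and 91.1% of kept peaks. Both lists held 6605 of them (38.9%), the LPS 4 h list alone 3095 (18.2%), the untreated list alone 601 (3.54%) and neither 6696 (39.4%). Of fragmented peaks, 96.3% met the untreated list and 98.4% the LPS 4 h list.

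By length, what was lost under the drug was less often part of the drug-free lists than the drug list as a whole. Of the 100.8 Mb, 49.8% was covered in both the untreated and the LPS 4 h list and 69.1% in the LPS 4 h list, against 72.7% and 85.4% of the whole drug list. The share also lost by LPS without the drug was 3.44%, against 1.89% of the whole list, and the share gained by LPS without the drug was 19.3%, against 12.8%. Of the 26.2 Mb added under the drug, 39.7% was covered in both lists and 32.5% in neither, against 78.9% and 8.45% of the whole drug and LPS list. The share also gained without the drug was 25.4%, against 11.4% of that list. The 4 lists together covered 408.0 Mb, and 171.1 Mb (41.9%) was common to all.

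The LPS gains of drug-free cells were followed in the drug lists. Of the 11775 gained peaks, 6167 (52.4%) met the drug list, before any LPS, and 4386 (37.2%) met the drug and LPS list. Of the 34921 LPS 4 h peaks already present in untreated cells, 84.7% and 76.0% did. Gains met only before LPS numbered 2499 (21.2%), those met only after it 718 (6.10%), and 4890 (41.5%) were met in neither. For the peaks already present these shares were 10.7%, 1.956% and 13.3%. The gains were narrower than the peaks already present, with median widths of 1002 and 4554 bp. A wider peak has more room for an overlap, and these shares were not compared at matched width. Counted from the other side, 744 of the 6103 gained peaks of the drug pair (12.2%) met a drug-free gain, which is 736 of those 11775 (6.25%). Of all drug and LPS peaks, 7.21% met a drug-free gain. Lost peaks of the drug pair met drug-free gains in 2167 cases (12.7%), against 10.5% of all drug-list peaks. They met drug-free losses in 518 cases (3.05%), against 2.64% of all drug-list peaks, and these are 16.9% of the 3057 drug-free losses.

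Distances from changed peaks to the other list were measured without a background of other intervals, so they show no closeness particular to these peaks. Gained peaks lie in gaps of the drug list by definition, and the median gap there was 2841 bp. The median distance of gained peaks to the nearest drug-list peak was 1434 bp, and 61.7% lay within 2 kb and 92.5% within 10 kb. Lost peaks lay a median of 3126 bp from the nearest drug and LPS peak, 33.7% of them within 2 kb.

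The company of other marks set changed peaks apart from kept ones. Call strength also differed slightly, and its part was not tested. The median −log10 q was 0.939 in gained and 0.995 in kept peaks, and 1.10 in lost and 1.21 in kept ones. The upper quartiles went the other way, at 1.33 and 1.26, and 1.60 and 1.56. H3K4me1 of LPS 4 h cells met 31.1% of gained peaks (29.9 to 32.3%) and 60.8% of kept ones, and 38.0% of lost peaks and 69.2% of kept ones in the drug list. H3K27ac met 14.4% of gained and 34.9% of kept peaks, and 20.0% of lost and 43.6% of kept peaks. H3K4me3 met 4.80% and 13.9%, and 8.78% and 22.6%. H3K79me2 met 12.7% and 29.1%, and 18.04% and 30.4%. PU.1 of untreated cells met 11.1% and 30.9%, and 13.2% and 41.5%. Changed peaks thus met enhancer and promoter marks less often. By length, H3K4me3 of LPS 4 h went the other way. It covered 1.97% of gained and 1.86% of kept length, and 3.39% of lost and 2.19% of kept length. For H3K4me1, H3K27ac, H3K79me2 and PU.1 the covered share of length was also lower in changed peaks. An alternative required at least 50% of a peak to be covered, both to sort the peaks and to meet a mark. It gave other sets, of 11642 gained and 29399 lost peaks, so its values are not of the same peaks. There the order turned for H3K4me3, at 0.483 percentage points higher in gained than in kept peaks, and for PU.1, at 1.18 points higher. For H3K4me1, H3K27ac and H3K79me2 it held with smaller differences. H3K27ac of LPS 4 h moved from −20.5 to −2.73 points in gained and from −23.7 to −0.895 in lost peaks, H3K4me1 from −29.8 to −11.5 and from −31.2 to −9.32, and H3K79me2 from −16.4 to −11.4 and from −12.3 to −6.31.

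Kept peaks are wider and so have more room for an overlap, and the classes of width were compared for that reason. Among peaks of 1 to 2 kb, H3K4me1 of LPS 4 h met 31.1% of gained and 52.6% of kept ones, and H3K27ac 14.0% and 28.4%. For H3K4me1, H3K27ac, H3K4me3 and H3K79me2 the share was lower in gained than in kept peaks in 4 of 4 classes, with intervals apart in each. PU.1 was lower in 4 of 4 classes with intervals apart in 2. In lost peaks H3K4me1 was lower in 5 of 5 classes with intervals apart in each. H3K27ac and PU.1 were lower in 5 of 5 with intervals apart in 4, H3K79me2 in 5 of 5 with 3 apart, and H3K4me3 in 4 of 5 with 4 apart.

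H3K36me3 and H3K27me3 stood out from that pattern. H3K36me3 of LPS 4 h met 57.1% of gained and 58.8% of kept peaks. In the other sets given by the 50% cover, the gained share was 14.4 points the higher. In the sets sorted by 1 bp, H3K36me3 covered 54.4% of the length of gained peaks against 31.6% of kept ones. In lost peaks it covered 55.4% against 34.4%. By class of width H3K36me3 of LPS 4 h was higher in gained than in kept peaks in 4 of 4 classes, but with intervals apart only in that of 1 to 2 kb. In that class it met 61.3% of gained peaks (59.1 to 63.5%) and 57.5% of kept ones (56.6 to 58.3%), and under 500 bp it met 52.2% and 51.3%. Untreated H3K36me3 was higher in 3 classes and lower in 1, with intervals apart in 0 of 4. In lost peaks H3K36me3 of LPS 4 h was higher in 4 of 5 classes with intervals apart in 3, at 61.7% of lost and 56.6% of kept peaks of 1 to 2 kb. H3K27me3, the mark of Polycomb-repressed chromatin, met 4.80% of gained and 1.58% of kept peaks, higher in 4 of 4 width classes with intervals apart. It met 3.71% of lost and 2.32% of kept peaks.

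The peaks changed by LPS without the drug had a similar H3K36me3 coverage. In the LPS 4 h lists H3K36me3 covered 49.3% of the length of drug-free gains and 62.5% of drug-free losses, against 28.7% and 26.4% of kept peaks. H3K4me1 met 44.4% of drug-free gains and 78.0% of kept LPS 4 h peaks. The H3K36me3 coverage of changed peaks was therefore not particular to the drug pair.

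**Figure D4:**
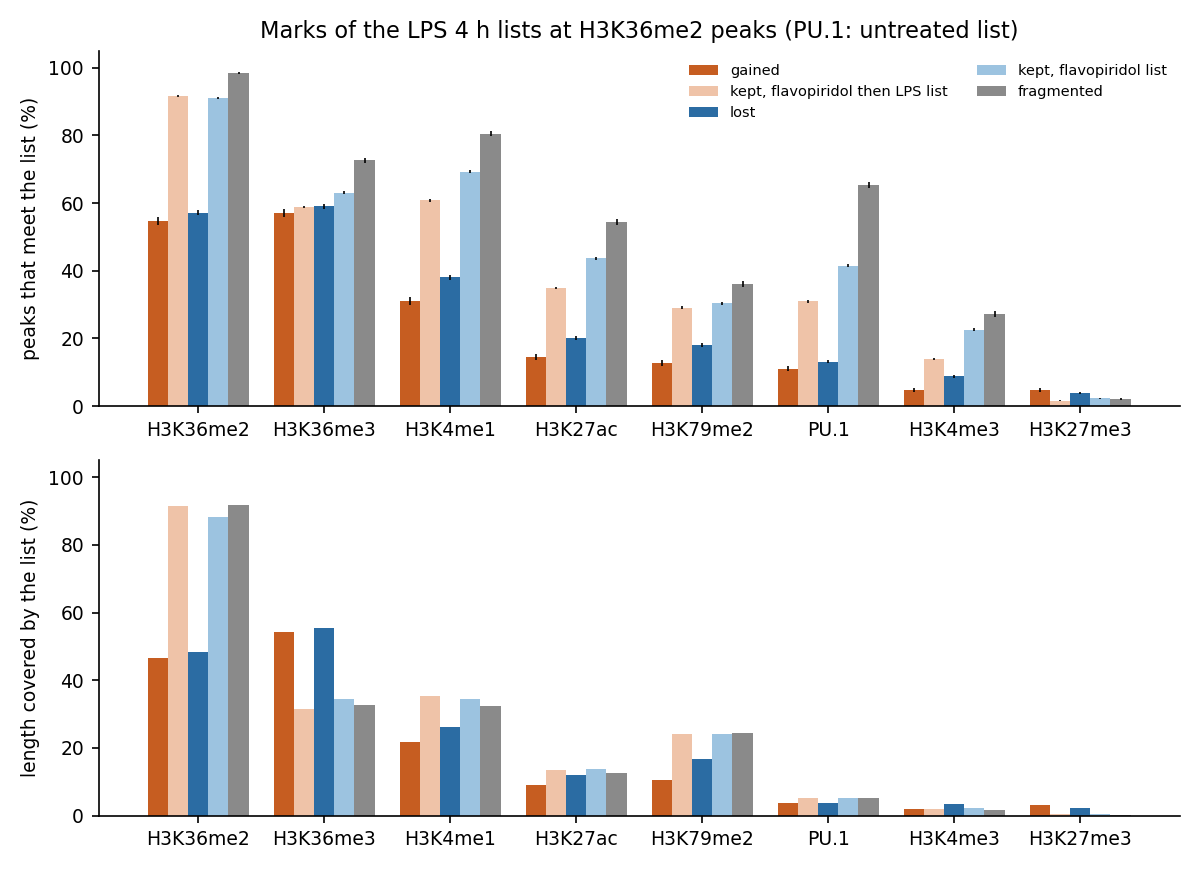
Share of peaks met (upper, y axis in %, bars with 95% Wilson intervals) and share of length covered (lower, y axis in %) by each LPS 4 h list (x axis, PU.1 from untreated cells) for gained, lost, kept and fragmented H3K36me2 peaks. Gained and lost peaks are met less often by H3K4me1, H3K27ac and PU.1 than kept ones, while H3K36me3 covers more of their length (54.4% and 55.4% against 31.6% and 34.4%).

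Fragmented peaks, with the largest median width, met 6 of the 7 other lists (the other marks at LPS 4 h and PU.1) more often than gained peaks, lost peaks or kept drug-list peaks that stayed whole. H3K4me1 of LPS 4 h met 80.4% of them, H3K36me3 72.6%, PU.1 65.4% and H3K27ac 54.3%. H3K27me3 was the exception, at 2.15% of fragmented peaks and 2.38% of kept peaks that stayed whole. Per length the order differed by mark. H3K4me1 covered 32.4% of fragmented peaks and 37.8% of kept peaks that stayed whole, H3K4me3 1.66% and 3.03%, and H3K79me2 24.5% and 23.7%.

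H3K4me1 in the same drug conditions was absent from most changed H3K36me2 peaks. Of the gained H3K36me2 peaks, 17.4% met H3K4me1 in both drug lists, 277 (4.54%) before LPS only and 175 (2.87%) after LPS only, and 75.2% met none. Of the lost peaks, 21.6% met H3K4me1 in both, 1308 (7.70%) before LPS only and 263 (1.55%) after LPS only. Among peaks that met H3K4me1 before LPS, 26.2% of lost H3K36me2 peaks (25.04 to 27.5%) and 13.0% of kept ones (12.6 to 13.5%) met none after it. Among peaks that met it after LPS, 14.1% of gained peaks (12.3 to 16.2%) and 4.73% of kept ones (4.48 to 5.005%) had met none before. The opposite direction was also more frequent in changed peaks. Among peaks that met H3K4me1 before LPS, 20.7% of gained peaks and 15.4% of kept ones of the drug and LPS list met none after it. Among peaks that met it after LPS, 6.68% of lost peaks and 3.31% of kept ones of the drug list had met none before. Where H3K36me2 changed, H3K4me1 calls thus differed more often in both directions. Kept peaks are wider, and this difference was not compared at matched width.

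The authors' segmentation of the genome, which assigns each 200 bp step of untreated cells to 1 of 27 chromatin states, was read at the changed peaks. It was made from the same mark libraries, so states that carry H3K36me2 repeat its list. State 15, covered to 99.9% by H3K36me3 and to 14.0% by H3K36me2, held 36.6% of the length of gained peaks and 33.6% of lost ones. It held 8.76% of kept length in the drug and LPS list and 5.20% of the segmented genome. State 1, covered to 99.9% by H3K36me2 with few other marks, held 3.11% of gained and 23.9% of kept length. State 26, covered to 64.5% by H3K36me2 and 32.2% by H3K36me3, held 37.8% of the inner gaps and 30.1% of the pieces. State 27, nearly without marks, held 19.1% of gained and 4.59% of kept length.

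Among the widest gained peaks are sites with more H3K27ac at LPS 4 h than in untreated cells. Gained peaks as a set differed little, with H3K27ac at 12.9% in untreated cells and 14.4% at LPS 4 h. For kept peaks of the same list the shares were 33.0% and 34.9%. The widest, chr10:18736040-18745810, met no drug-list peak and was covered to 81.2% in untreated cells and to 100% at LPS 1 h and 4 h. H3K27ac covered 0% of it in untreated cells and 50.1% at LPS 4 h, and H3K4me1 20.4% and 55.5%. With the drug H3K4me1 covered 3.60% before LPS and 5.70% after. The second, chr10:18747263-18753278, is its neighbour and had H3K27ac over 3.57% and 56.1%. The fourth, chr10:44321547-44326943, had 20.8% and 69.4%. The third, chr15:57694892-57700581, had H3K36me3 over 50.8% and no H3K27ac, and the fifth, chr18:42063041-42068388, had H3K36me2 at LPS 4 h over its whole length and none of the other marks.

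Some of the widest gained peaks were absent from the untreated or the LPS 4 h H3K36me2 list. At chr6:115452994-115457292, absent from the untreated and LPS 4 h H3K36me2 lists, H3K4me1 covered 100% in both of those conditions and 96.8% and 97.0% with the drug, and 3 PU.1 peaks lay there. H3K36me2 was called over 45.5% of it at LPS 1 h. At chr9:57393657-57397270 and chr6:90561853-90565614, in none of the drug-free H3K36me2 lists, H3K36me3 covered 100% and 49.1% in untreated cells. At chr6:30692175-30696779, absent from untreated cells, H3K36me2 covered 96.6% at LPS 4 h and H3K36me3 98.0%. At chr10:74773277-74777553 the values were 42.0% and 65.7%.

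Of the 5 widest lost peaks, 3 lay under H3K36me3. That is near its share over all peaks, since at LPS 4 h it met 59.0% of lost and 63.0% of kept drug-list peaks. H3K36me3 covered 100% of chr9:122907185-122918148 and of chr13:108951062-108960740 in untreated and LPS 4 h cells, and 82.0% and 100% of chr8:97015339-97024769. The peak at chrX:149697488-149707606 had H3K36me2 over its whole length at LPS 4 h and no other mark. The peak at chr19:5830851-5840482 had the reverse makeup. No drug-free H3K36me2 list held it, H3K27ac covered 95.1% and 100% of it in untreated and LPS 4 h cells, H3K4me3 26.0% and 33.1%, and H3K4me1 100% with the drug and 77.6% with the drug and LPS.

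Chromosome X stood apart from the autosomes. H3K36me2 on X covered 5.60 Mb in the drug list and 1.82 Mb in the drug and LPS list, or 32.5% of the first. On the 19 autosomes the share ranged from 72.4 to 78.7%. Of 2193 X peaks, 61.6% were lost (59.5 to 63.6%), against 28.0% of autosomal ones (27.7 to 28.4%), and 7.30% were fragmented against 20.5%. X peaks of the drug list were narrower, with medians of 1569 and 2502 bp, but the difference held at matched width. Among peaks of 2 to 5 kb, 49.9% of X peaks (46.0 to 53.8%) and 16.5% of autosomal peaks (15.9 to 17.1%) were lost.

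Without the drug X also covered more length after LPS, and rose further than any autosome. It reached 140.6% of its untreated length, against 119.3 to 130.1%. Gained peaks made up 32.3% of its LPS 4 h peaks, against 21.4 to 28.1% on the autosomes. H3K4me1 with the drug showed a smaller gap than H3K36me2 with the drug, at 65.6% of its length on X and 81.8% on the autosomes. The median −log10 q of drug-list H3K36me2 peaks was 0.867 on X and 1.20 on the autosomes, and in the untreated list 1.26 and 1.91, and the part of call strength in the X result was not tested. Lost X peaks were more often present without the drug than lost autosomal ones, with 80.7% (78.6 to 82.8%) and 55.0% (54.2 to 55.8%) in the LPS 4 h list. Kept X peaks were also more often present there than kept autosomal ones, at 97.9% and 91.0%. H3K36me3 of LPS 4 h met 30.3% of lost and 18.1% of kept X peaks, and 61.5% of lost and 63.9% of kept autosomal peaks. On autosomes alone 15647 peaks were lost and 5927 gained, so X does not carry the main counts.

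**Figure D5:**
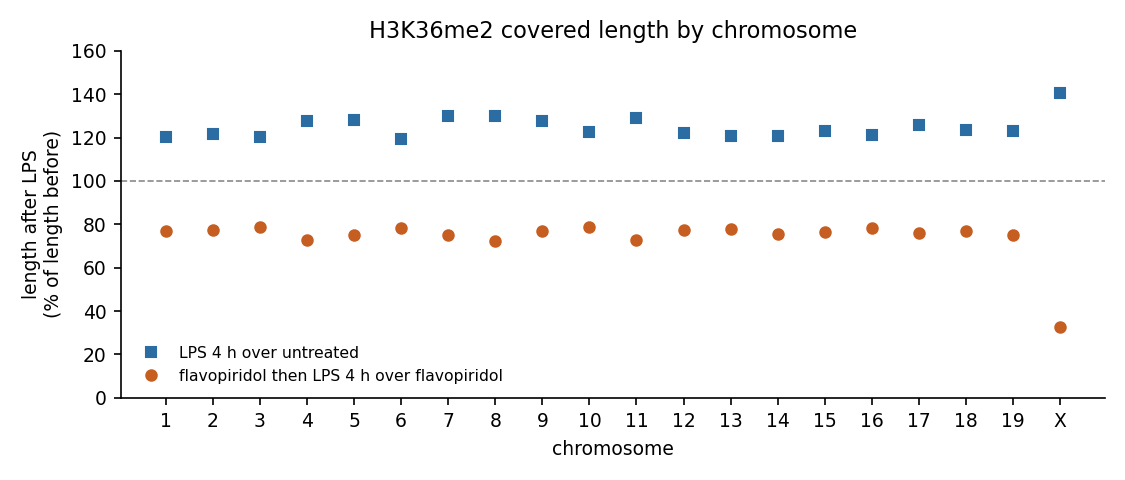
H3K36me2 length after LPS as % of the length before (y axis) on each chromosome (x axis), with flavopiridol (orange circles) and without (blue squares), 1 library per condition; the dashed line is 100%. Autosomes lie between 72.4 and 78.7% with the drug, and X at 32.5%.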

How the data were processed

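Crosslinked and sonicated chromatin was immunoprecipitated with 1 antibody per library and sequenced, per the labels' protocols. The submitters' processing notes name Bowtie 1.0.1, the mm9 build and MACS2. What the peak caller used as settings and control, whether libraries were pooled, how the states were segmented and the depth of each library are not stated in these sources. The authors deposited a fold enrichment (a ratio over the caller's background) and a −log10 p and −log10 q for each peak. These values described peaks and served in 1 alternative. Intervals on chromosomes 1 to 19 and X were used. Overlaps of at least 1 bp were computed in Python 3.11.15 with numpy 2.4.6 and pandas 2.3.3, and checked against bedtools 2.31.1 and on simulated lists. Shares have 95% Wilson intervals. The coverage of a mark is the part of a set's length under its peaks.

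Named regions are the 5 widest gained and lost peaks, the 5 peaks with most pieces, the 3 fused peaks with most parts, and the 3 widest gained peaks present in or absent from the untreated and LPS 4 h lists. The comparison, the lists and the tests were chosen with earlier results of these data known, and the chromosome X comparison was added after its values were seen. Coordinates are 1-based mm9 positions. The gene tables at hand are of another build, so regions carry no gene names and no sequence. The LPS 1 h lists of other marks, the LPS 1 h segmentation and the 18-state segmentation were not used here. Alternatives were a cover of 50%, a −log10 q of at least 5, merging within 1 kb, all sequences, peaks of at least 1 kb, equal numbers of the widest peaks and base pairs in place of peaks, with merging within 3 kb and autosomes only added after the data were seen.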

Additional observations from a re-analysis of the deposited data

Results flagged for a closer look

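The difference between the H3K36me2 lists before and after LPS 4 h had opposite signs with and without flavopiridol, in 3 measures. With the drug, LPS and the longer time after the drug cannot be told apart. Covered length after LPS minus before was −74.6 Mb with the drug and 67.7 Mb without it. Gained minus lost peaks came to −10894 with the drug and 8718 without it. Fragmented minus fused peaks came to 7421 with the drug and −7627 without it. Each value rests on 1 library per condition, and the difference between the 2 pairs was not tested. The share of peaks that reached a −log10 q of 5 was 0.0390% in the drug and LPS list and 32.5% in the LPS 4 h list, and its part in the difference was not tested.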

How the results depend on the processing

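Lost peaks outnumbered gained ones with the drug, and gained ones lost ones without it, under each of the alternatives. Fragmented peaks outnumbered fused ones with the drug except at a −log10 q of at least 5. That threshold left 114 drug-list and 24 drug and LPS peaks with none shared, so it bears on no kept peak: gained 24, lost 114, both 100%, fragmented 0, fused 0, a length difference of −0.158 Mb, and presence of gained peaks of 12.5% (untreated) and 25% (LPS 4 h) and of lost peaks of 8.77% and 32.5%. Without the drug it left 48 fragmented and 294 fused peaks. Co-marks could not be compared there.

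With 50% of a peak covered, gained peaks numbered 11642 (18.9%), lost 29399 (50.7%) and fused 1385. Presence in the untreated list was 32.5% for gained and 39.7% for lost peaks. Without the drug 19514 were gained, 5167 lost and 580 fragmented. Gained and lost peaks each met 8 of 15 mark lists less often than kept ones, instead of 13. The differences in percentage points turned positive for H3K4me3 (gained 0.387 untreated and 0.483 at LPS 4 h, lost 1.16 and 0.985), for H3K36me3 (gained 12.02 and 14.4, lost 16.5 and 16.8) and for PU.1 (gained 1.18, lost 0.747). With peaks of at least 1 kb, gained H3K36me3 at LPS 4 h turned to 0.0539 points. There, gained peaks numbered 3849 (8.40%), the lost share was 30.3%, presence was 57.3% for gained peaks at LPS 4 h and 44.1% and 60.8% for lost peaks, and 1859 were lost without the drug.

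Equal numbers of the widest peaks gave shares of 8.62% gained and 31.4% lost, with lost peaks present for 40.2% and 58.3%. Base pairs gave 11.4% and 33.1%. Merging within 3 kb gave 3073 gained, 7257 lost (26.1%), 5163 fragmented and 1149 fused peaks, presence of 32.7% and 50.5% for gained and 39.8% and 54.2% for lost peaks, and without the drug 5775 gained, 1675 lost, 531 fragmented and 4219 fused. Autosomes alone gave 28.0% lost, present for 40.5% and 55.0%. Merging within 1 kb changed nothing, since no gap is that short. No paired analysis was possible because each condition has 1 library and carries no replicate number.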
